A study of Mus musculus with 2 samples.

Results

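miR-103-3p and miR-107-3p (mmu-miR-103-3p and mmu-miR-107-3p on the array) are near-identical microRNAs (miRNAs) whose hairpins lie inside genes of the pantothenate kinases, the enzymes that start coenzyme A synthesis. They were picked by name from the mouse miRNAs of an Agilent array, so they are 2 of 1881 miRNAs measured. The samples were bone marrow LSKs (cells without lineage markers that carry Sca-1 and c-Kit, among them the hematopoietic stem cells and their first progeny) of C57BL/6 mice with the Scl/tTA and BCR/ABL transgenes. In this tet-off model Scl/tTA directs the BCR/ABL fusion gene of chronic myelogenous leukemia to stem and progenitor cells while doxycycline is absent. Mice of both groups carried both transgenes and had been kept on doxycycline at 20 mg/L in the drinking water. The week-0 group was sorted with doxycycline still given, and the week-3 group 3 weeks after it was withdrawn. Each group was a pool of LSKs from 3 mice on 1 array, and both arrays lay on 1 slide. There was thus no replicate, and no test between the groups was possible. No array of LSKs without BCR/ABL after doxycycline withdrawal was analysed here, so the effects of doxycycline, of time, of the single pools and of BCR/ABL cannot be told apart. Errors are over the repeated spots within an array and cover technical error only.

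miRNAs guide Argonaute proteins to mRNAs mainly through the seed, bases 2 to 8 from the 5′ end, and lower the stability and translation of their targets. miR-103 and miR-107 are expressed in most tissues, and Dicer1, the nuclease that cuts miRNA precursors into mature miRNAs, is among their known targets. In mouse liver and fat they are known for restraining insulin sensitivity, and human miR-107 has been described as induced by p53 together with its host gene PANK1. The mature sequences, from RefSeq (GRCm38.p6), are shown because the identity of these miRNAs bounds what an array can separate. Capitals mark the seed and the base at which they differ.
miR-103-3p: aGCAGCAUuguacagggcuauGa
miR-107-3p: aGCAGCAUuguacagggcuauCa
Both were 23 bases long and differed at 1 base, G22C, counted from the 5′ end of miR-103-3p. The seed was the same, and no other mature miRNA of the RefSeq table carried it.

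miR-103-3p is made from 2 hairpins. Mir103-1 lies at chr11:35782396-35782481 on the plus strand, within Pank3. Mir103-2 lies at chr2:131288052-131288137 on the plus strand, within Pank2. Mir107 lies at chr19:34820687-34820773 on the minus strand, within Pank1. Each hairpin had the strand of its host gene. The hairpins are shown with the measured 3p arm in capitals, since all that sets the 2 sources of miR-103-3p apart lies outside it.
Mir103-1: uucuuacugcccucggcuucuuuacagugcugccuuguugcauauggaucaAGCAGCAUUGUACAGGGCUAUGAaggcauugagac
Mir103-2: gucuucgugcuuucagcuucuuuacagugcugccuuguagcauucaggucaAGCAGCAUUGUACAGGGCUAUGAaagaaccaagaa
Mir107: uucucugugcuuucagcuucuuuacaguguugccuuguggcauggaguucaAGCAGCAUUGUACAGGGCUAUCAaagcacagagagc
In pairwise alignment Mir103-1 and Mir103-2 were identical at 80.2% of positions, Mir103-1 and Mir107 at 80.5%, and Mir103-2 and Mir107 at 83.9%. Since the 3p arm is the same in Mir103-1 and Mir103-2, the array does not separate the Pank2 and Pank3 loci in the signal of miR-103-3p. The share of each locus is not known.

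Each miRNA had 2 probes, DNA strands complementary to its 3′ part. They are shown 5′ to 3′ with the base that pairs with position 22 in capitals.
miR-103-3p, 18-base probe: tCatagccctgtacaatg
miR-103-3p, 17-base probe: tCatagccctgtacaat
miR-107-3p, 20-base probe: tGatagccctgtacaatgct
miR-107-3p, 19-base probe: tGatagccctgtacaatgc
All 4 probes matched their own miRNA without a mismatch and the other one with 1 mismatch, at the second base of the probe. With up to 3 mismatches allowed and no gaps, no further miRNA of the RefSeq table matched any of them. How much each miRNA binds the probes of the other was not tested, and whether their signals are separate measurements is therefore not known.

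The scanner software detected 178 of the 1881 miRNAs in the week-0 pool and 193 in the week-3 pool, with 158 on both arrays. miR-103-3p and miR-107-3p were detected on both, and all 60 of their spots on each array (15 for each probe) were flagged as well above background. Their lowest spot had a processed signal, which is the background-subtracted intensity of a spot before any scaling between arrays, of 48.8 in the week-0 pool and 33.2 in the week-3 pool. Of 1000 negative control spots per array the median was 4.72 and 4.59. No negative control spot at week-0 and 1 at week-3 exceeded the lowest spot of these miRNAs. That control spot had a signal of 350.2, above all their spots on the array. The sorted cells carried the blood cell miRNAs miR-142a-3p and miR-142a-5p and 5 of 5 stem and progenitor miRNAs on both arrays. The listed miRNAs of stroma (4), liver (1), muscle (2), neurons (2), epithelia (2) and mature lymphoid cells (1) were detected on neither array. The 5 stem and progenitor miRNAs had a summed signal of 1242 at week-0 and 329 at week-3, and the granulocyte miRNA miR-223-3p had 820.1 and 1121. Of 4 erythroid miRNAs 1, miR-451a, was detected, at week-0 only, and the summed signal of the 4 was 51.7 and 7.22. The part of these shifts in the values below was not tested. In sorted pools, fewer cells with a miRNA and less of it per cell cannot be told apart.

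miR-107-3p was lower at week-3 on both probes, to about the same degree. On the 20-base probe the 15 spots of week-0 ran from 206.6 through a median of 228 to 239. The 14 retained spots of week-3 ran from 94.5 through 115 to 136, so every spot of week-3 lay below every spot of week-0, with 70.4 units between the ranges. One further spot of week-3, marked as an outlier by the scanner software and left out, had 137, just above the others. The means were 226 ± 9.56 (SD, 15 spots) and 115 ± 10.6 (SD, 14 spots), a ratio of week-3 to week-0 of 0.508 (SE 0.014). On the 19-base probe the spots ran from 74.4 through 90.2 to 98.6 at week-0 and from 39.9 through 46.9 to 55.4 at week-3, again without overlap. The means were 87.7 ± 7.63 and 47.1 ± 3.97 (SD, 15 spots each), a ratio of 0.537 (SE 0.017).

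miR-103-3p was also lower at week-3 before scaling, by less than miR-107-3p. Its 18-base probe had spots from 140 through a median of 165 to 182 at week-0 and from 88.2 through 106.98 to 127 at week-3, which did not overlap. The means were 165 ± 13.2 and 106.6 ± 11.8 (SD, 15 spots each), a ratio of 0.646 (SE 0.023). The spots of the dimmer 17-base probe ran from 48.8 through 64.4 to 71.8 at week-0 and from 33.2 through 42.5 to 50.1 at week-3. These ranges overlapped by 1.27 units, with 1 spot of week-0 and 2 of week-3 in the overlap. The means were 61.1 ± 7.0 and 42.6 ± 5.12 (SD, 15 spots each), a ratio of 0.697 (SE 0.030). For 3 of these 4 probes, then, every spot of week-3 lay below every spot of week-0. The same held for 32.1% of the 340 probes of miRNAs detected on both arrays, so such a separation was common.

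**Figure D1:**
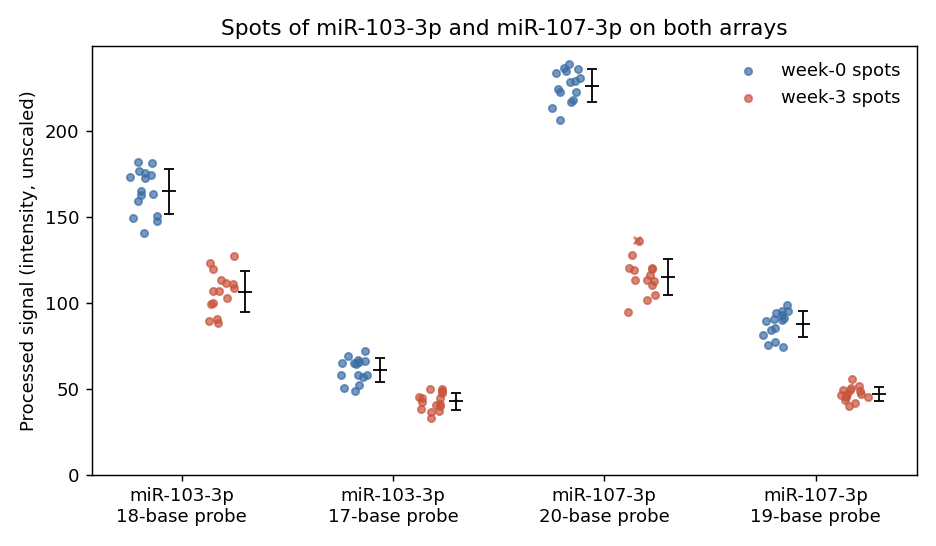
Processed signal of each spot (intensity, unscaled) for the 2 probes of miR-103-3p and of miR-107-3p, at week-0 (blue) and week-3 (red). The cross is the outlier spot that was left out, and the bars are mean ± SD over the spots kept. The ranges of week-0 and week-3 are apart for every probe except the 17-base probe of miR-103-3p.

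The falls on the 2 probes of each miRNA differed by less than the 95% error over spots. For miR-103-3p the unscaled log2 ratio was -0.63 (SE 0.05) on the longer and -0.52 (SE 0.06) on the shorter probe, a gap of 0.11 (SE 0.08). For miR-107-3p the values were -0.98 (SE 0.04) and -0.90 (SE 0.05), a gap of 0.08 (SE 0.06). The comparison set was 116 miRNAs detected on both arrays that had exactly 2 probes of different length and probe means above 10 on both arrays. Over these the gap had a median of 0.08 and quartiles of 0.04 and 0.14, and miR-107-3p ranked 59 and miR-103-3p 70 from the smallest gap. The longer probe was 2.70 times as bright as the shorter at week-0 and 2.50 times at week-3 for miR-103-3p. For miR-107-3p it was 2.58 and 2.44 times as bright. The medians of the 116 were 1.71 and 1.75. Each longer probe of these miRNAs had only 1 base more than the shorter one, a G for miR-103-3p and a T for miR-107-3p, at its 3′ end.

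**Figure D2:**
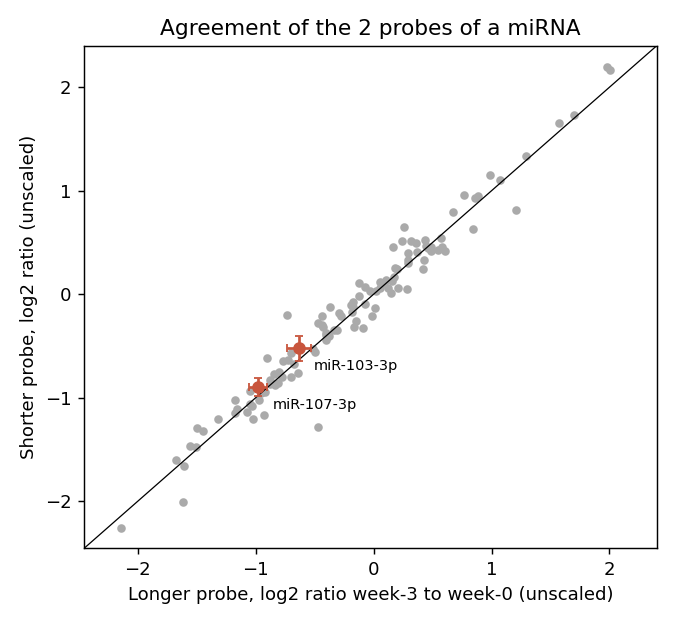
Unscaled log2 ratio of week-3 to week-0 on the longer probe (x axis) against the shorter probe (y axis) of 116 miRNAs, with the diagonal of equal ratios. miR-103-3p and miR-107-3p (red, bars are 95% intervals over spots) lie just above the diagonal, with gaps of 0.11 and 0.08.

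For comparison with the other miRNAs, the probe means were summed per miRNA, quantile normalized between the arrays and put on a log2 scale. A ratio of week-3 to week-0 of 0.67 or less was taken as lower and one of 1.5 or more as higher, the thresholds of the study. The summed signals of miR-107-3p were 314 at week-0 and 162 at week-3, and the normalized log2 signals 8.17 and 7.57. The log2 difference was -0.60 (SE 0.03), a ratio of 0.661, or 1.51-fold lower, just past the threshold. The summed signals of miR-103-3p were 226 and 149, and the normalized log2 signals 7.62 and 7.40. Its log2 difference was -0.23 (SE 0.04), a ratio of 0.855, which did not reach the threshold. Of the 213 miRNAs detected on at least 1 array, 28.6% were lower and 25.8% higher by the same rule, so 1 of 2 past it in the lower direction is not set apart from that background. Over the 158 miRNAs detected on both arrays the lower share was 26.6%, and the median log2 difference was -0.04. Counted from the lowest of these, miR-107-3p ranked 41 and miR-103-3p 65. By normalized signal miR-107-3p went from rank 40 to 50 and miR-103-3p from 49 to 54.

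**Figure D3:**
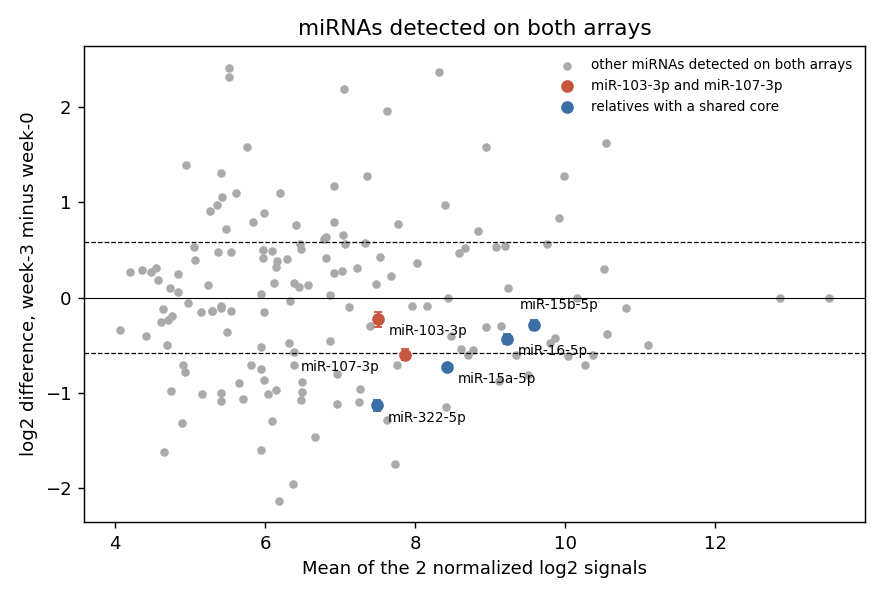
log2 difference (week-3 minus week-0) against the mean of both normalized log2 signals for the 158 miRNAs detected on both arrays. Dashed lines mark ratios of 0.67 and 1.5, and bars are 95% intervals over spots. miR-107-3p lies at -0.60, at the lower line, miR-103-3p at -0.23, and all 4 detected relatives (blue) lie below 0.

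How far both fell depended on the scaling, while the order of the 2 was the same under each way of processing. Without normalization between arrays the log2 differences were -0.95 for miR-107-3p and -0.60 for miR-103-3p, so that miR-103-3p also passed the threshold (ratio 0.660). The median of the 158 miRNAs was then -0.18. Relative to that median the differences were -0.77 and -0.42 without normalization, and -0.55 and -0.18 with quantile scaling. In the authors' own quantile-normalized table miR-107-3p had log2 signals of 7.36 and 6.40, a difference of -0.96 and a ratio of 0.514, well past 0.67. There miR-103-3p had 6.75 and 6.20, a difference of -0.55 and a ratio of 0.683, close to 0.67. With an RMA-like summary, which adds an offset to the background-corrected spots and so draws ratios toward 1, the differences were -0.38 and -0.16 and neither passed.

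miR-107-3p had the lower difference of the 2 under each of the 9 ways of processing that were run. Some of these ways could not change the gap, since a common factor for all signals of an array cancels in it. The scalings to a 75th percentile thus gave the same value as no normalization, and the 9 are not separate checks. With quantile scaling its log2 difference was 0.37 below that of miR-103-3p, written as -0.37 (SE 0.05, with a 95% interval over spots from -0.47 to -0.27). The SE was taken from the signals before scaling. The interval therefore leaves out differences between mice and arrays and the choice of processing. The value was -0.35 without normalization and -0.22 with the RMA-like summary. It was -0.48 where the scanner's total per miRNA was used and scaled between arrays. Before scaling, that total was 48.0 and 31.6 for miR-103-3p and 66.6 and 34.4 for miR-107-3p. For both miRNAs it then had the unscaled ratio of the summed probes to within rounding.

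**Figure D4:**
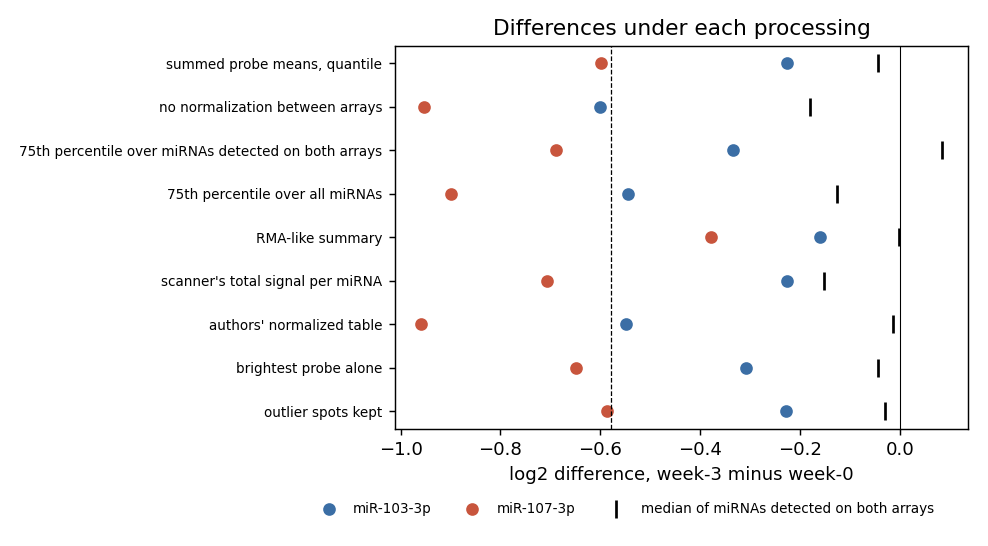
log2 difference (week-3 minus week-0) of miR-103-3p (blue) and miR-107-3p (red) under 9 ways of processing, with the median of the 158 miRNAs detected on both arrays (black tick) and the ratio of 0.67 (dashed line). miR-107-3p lies left of miR-103-3p in each, from -0.96 to -0.38 against -0.60 to -0.16.

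A gap of this size was also seen between other detected miRNAs that differ by 1 base. RefSeq sequences matched 135 of the 158 miRNAs detected on both arrays, and 8 pairs among these had equal length and 1 base between them. In the 7 pairs other than miR-103-3p and miR-107-3p, the gap in log2 difference ran from 0.09 for let-7a-5p and let-7f-5p to 1.06 for miR-27a-3p and miR-27b-3p, with a median of 0.28. In 3 of these 7 it was above the 0.37 of miR-103-3p and miR-107-3p, among them miR-19a-3p and miR-19b-3p with 0.38. In these 7 the differing base lay before position 20, whereas in miR-103-3p and miR-107-3p it lay at position 22, near the 3′ end of the miRNA. Some miRNAs stand in several pairs, so the pairs are not independent.

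The other arms of the hairpins gave no signal above background. miR-103-1-5p had 3 probes with means from -2.65 to -0.38 at week-0 and from -5.05 to -1.82 at week-3, and 0 of its 30 spots on each array was well above background. miR-107-5p had 3 probes with means from -2.54 to -0.28 and from -3.12 to -1.30, also with 0 of 30 spots. Both were not detected on either array, and no ratio is given. No miRNA of the array had the name miR-103-2-5p, so this arm was not analysed here. Of the Pank1 hairpin, the 3p arm was thus the detected product on both arrays.

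miR-103 and miR-107 are counted with miR-15a, miR-15b, miR-16, miR-195a, miR-322, miR-497a and miR-503 as the miR-15 and miR-107 group, since all share the bases AGCAGC near the 5′ end. Members of the group with the miR-15 seed are known for restraining cell cycle genes such as cyclins. The detected relatives are shown with their seed in capitals.
miR-15a-5p: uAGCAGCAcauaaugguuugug
miR-15b-5p: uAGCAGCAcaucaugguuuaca
miR-16-5p: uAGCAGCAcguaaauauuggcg
miR-322-5p: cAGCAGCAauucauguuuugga
In miR-103-3p and miR-107-3p the shared bases start at base 1 and in these relatives at base 2, so the seeds are shifted by 1 base and differ. Of 1679 mature miRNAs of RefSeq, 13 held AGCAGC within their first 8 bases (0.774%). All 13 were on the array, and the 6 detected ones were miR-103-3p, miR-107-3p and the 4 above.

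Each of the 6 had a log2 difference below 0, as did 50.6% of the 158 miRNAs detected on both arrays (59.5% before scaling between arrays), and 3 passed the threshold of 0.67, against 26.6% of the 158. miR-322-5p, encoded beside miR-503 on the X chromosome, had summed signals of 303 and 108 and the lowest log2 difference of the group, -1.13 (SE 0.03). miR-15a-5p, encoded beside miR-16-1 within Dleu2, had 495 and 231, a difference of -0.73 (SE 0.02). miR-107-3p followed with -0.60. miR-16-5p, encoded both by Mir16-1 and by Mir16-2 beside Mir15b, had 788 and 445, a difference of -0.43 (SE 0.03). The array does not separate these loci. miR-15b-5p had 938 and 598, a difference of -0.29 (SE 0.02). miR-103-3p had the smallest difference of the 6. The median was -0.52, against -0.04 over the 158 miRNAs detected on both arrays and 0.00 over the 213 detected on at least 1. All 6 stayed below 0 under each way of processing, but the number past 0.67 was 6 without normalization, 5 with the 75th percentile over all miRNAs, 1 with the RMA-like summary and 3 with the others. miR-195a-5p, miR-497a-5p and miR-503-5p were not detected, with summed signals from -1.44 to 8.23.

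**Figure D5:**
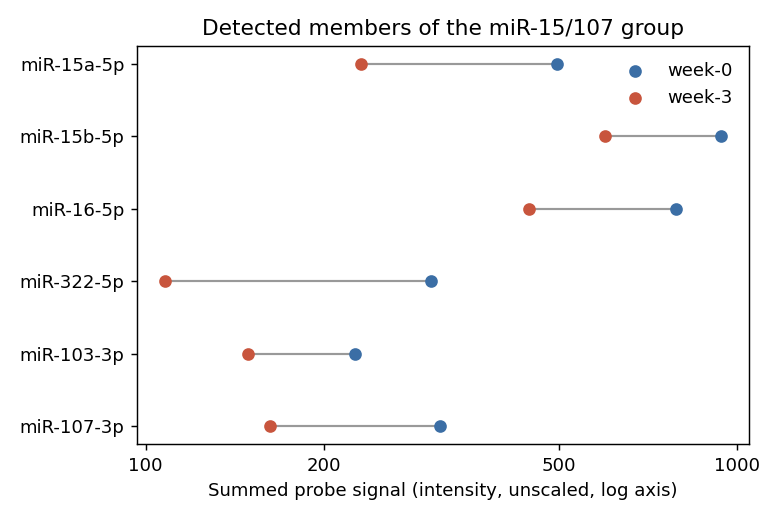
Summed probe signal (intensity before scaling, log axis) of the 6 detected miRNAs of the miR-15 and miR-107 group at week-0 (blue) and week-3 (red). Signals of different miRNAs do not rank abundance. The week-3 point lies left of the week-0 point for all 6, from 303 to 108 for miR-322-5p and from 226 to 149 for miR-103-3p.

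By the distance between the normalized log2 signals of both arrays, the miRNAs most like miR-107-3p were miR-23a-3p (distance 0.17), miR-93-5p (0.39) and miR-24-3p (0.54). Their log2 differences were -0.70 (SE 0.02), -0.08 (SE 0.03) and -0.09 (SE 0.02). Those most like miR-103-3p were miR-27a-3p (0.16), miR-3473f (0.27) and miR-669p-3p (0.41), with differences of -0.30 (SE 0.03), 0.15 (SE 0.04) and 0.23 (SE 0.04). The distance uses the same 2 values per miRNA that give the difference, and it sets signals of different probes side by side, so nothing is read from how near the differences lie.

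Among 9 miRNAs linked to p53, only miR-107-3p and miR-34a-5p, a direct p53 target, were detected. The summed signals of miR-34a-5p were 48.5 and 17.7, which gave -1.32 (SE 0.09) as log2 difference. Both were past 0.67, as were 26.6% of all miRNAs detected on both arrays, and the other 7 were detected on neither array. Of 2 other miRNAs that lie within introns of metabolic genes, miR-33-5p of Srebf2, which encodes a regulator of sterol synthesis, was detected at week-0 only, with signals of 18.2 and 5.94. miR-378a-3p of Ppargc1b, a coactivator of mitochondrial genes, was detected on neither array, with 11.8 and 16.6.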

How the data were processed

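Total RNA was labelled with Cy3 and hybridized to mouse miRNA arrays of Agilent. Per the file headers, Feature Extraction 10.7.1.1 turned the scans into deposited intensity values for each spot, background-subtracted but not scaled between arrays. The authors also deposited log2 normalized signals, made with the quantile method of AgiMicroRna according to their methods; the log2 scale was read from the values, and both column medians were 2.48. How background and spots were handled there is not given in the sources used here. Flags for detection, outlier spots and spots well above background are those of the scanner software.

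Here, control spots were left out, as were the outlier spots among the miRNA spots (1941 at week-0, 1600 at week-3). Processed signals were averaged per probe, summed per miRNA and quantile normalized over 1881 miRNAs. They were then raised to 0.5 where below it and put on a log2 scale. The number of saturated miRNA spots was 0. Standard errors come from the spots of both arrays, before scaling. Python 3.11.15, pandas 2.3.3, R 4.3.3 and limma 3.58.1 (normexp, offset 50, for the RMA-like summary) were used. The summed probe means with quantile scaling were tested on simulated data, and the RMA-like summary was not. Sequences and coordinates are from RefSeq on GRCm38.p6; the scanner files name mm9, whose coordinates were not used. Named were miR-103-3p and miR-107-3p, the other arms of their hairpins, the lists given in the report and the 3 nearest miRNAs of each; the pairs that differ by 1 base were added after the values were seen. The miRNAs and lists were chosen with earlier results of these data known. The number of arrays limits the precision.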

Additional observations from a re-analysis of the deposited data

How the results depend on the processing

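With 1 array per group nothing could be left out, and 8 alternatives were run for each result, and the counts were also taken over miRNAs detected on both arrays. No paired analysis was possible because each group holds 1 array. No result changed sign. The log2 difference of miR-103-3p, -0.23, became -0.60 without normalization between arrays, -0.33 and -0.55 when scaled to a 75th percentile (of the miRNAs that both arrays detected or of all miRNAs, in that order), -0.55 in the authors' table and -0.31 with the brightest probe alone. It was past 0.67 only without normalization. That of miR-107-3p, -0.60, became -0.95, -0.69 and -0.90 with the same scalings, -0.71 with the scanner's total signal, -0.38 with the RMA-like summary and -0.96 in the authors' table, and it fell short of 0.67 only with the RMA-like summary. The difference between the 2 became -0.22 with the RMA-like summary and -0.48 with the scaled total signal. The median of the 6 detected miRNAs of the miR-15 and miR-107 group, -0.52, became -0.89, -0.62 and -0.83 with the scalings above, -0.36 with the RMA-like summary and -0.76 in the authors' table. Counts over the 213 miRNAs detected on at least 1 array, 61 lower and 55 higher, were 10 and 11 with the RMA-like summary. Over miRNAs detected on both arrays they were 42 and 30. Over the 213, the share of lower among all calls was 52.6% with quantile scaling, 62.2% when scaled to the 75th percentile of all miRNAs and 63.9% with no scaling. It was 47.6% with the 75th percentile of the miRNAs that both arrays detected and again after RMA-like summarising, 48.9% on total signal, 49.6% with the brightest probe, 50.5% in the authors' table and 52.2% with outlier spots kept. The RMA-like offset shrinks ratios of dim probes by construction. No normalization and the scalings to a 75th percentile differ from each other only by a common factor per array, also by construction. The cause of the remaining shifts was not tested.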
